A study of Homo sapiens with 27 samples.

Results

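NET39, the product of PLPP7, is a protein of the nuclear envelope that spans the membrane and is made preferentially in muscle. The results below set the change in gene expression under full-length NET39, which is held in the membrane, against the change under its soluble nucleoplasmic fragment, which has no anchor. The comparison was defined by sample, with no use of measured values: it took the 14 arrays, of 27 in the series, that held the NET39 line, untreated cells, the NET39 soluble fragment or NLS-GFP. All 48803 probes were tested, and 18665 genes were each read from 1 probe, the brightest on average over all arrays. The quantity followed for every gene is an interaction, the change in the NET39 line minus the change with the soluble fragment, each against its own control.

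All samples were HT1080, a fibrosarcoma cell line that grows as fibroblasts. The cells of the NET39 line (n = 4) stably expressed NET39 fused to green fluorescent protein (GFP), after lipid transfection, drug selection with Geneticin and enrichment by cell sorting. They were set against untreated cells (n = 4), which had no GFP, no selection and no sorting. The nucleoplasmic fragment of NET39, also a GFP fusion, was set (n = 3) against GFP carrying a nuclear localisation signal, called NLS-GFP (n = 3). The sources differ on how the fragment was expressed: the sample labels describe transient transfection with NLS-GFP as its control, while a figure legend of the study calls the fragment cells stable. The labels are followed here, and the fragment and NLS-GFP are called the transient groups. On the labels' account stable and transient expression differ between the terms of the interaction, so that the membrane anchor and the mode of expression cannot be told apart. On the legend's account that difference would be absent from the fragment, and these arrays do not settle which holds. The boundaries of the fragment, the share of cells that expressed it and the number of independent lines are not given in the sources used here. In bulk RNA, fewer responding cells and a smaller change per cell cannot be told apart.

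Transmembrane proteins of the inner nuclear membrane reach it from the endoplasmic reticulum and are retained there by binding lamins or chromatin. Several of them tether chromosome regions to the nuclear periphery, where chromatin is mostly compact and poorly transcribed, and others hold signalling proteins or transcriptional regulators at the envelope. NET39 belongs by sequence to the lipid phosphatase family, and in mouse myoblasts it takes part in differentiation. A fragment without membrane spans keeps nucleoplasmic residues that could bind regulators but is not itself held in the membrane. The study cites earlier work in which such soluble fragments did not reposition chromosomes. The comparison describes the expression changes seen with each form, within the limits above on anchor, mode of expression and controls.

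Bead intensities were corrected for background, quantile normalised and taken to log2, so that a difference of 1 is a doubling of intensity. A gene was called when its limma adjusted p was under 0.05 over all probes and its log2 difference was beyond 0.5 (1.41-fold). The background of an array, the 95th percentile of 620 probes for gene families silent in these cells, was 54.7 to 58.8 intensity units in the NET39 line, 57.1 to 64.4 in untreated cells, 74 to 83.1 with the fragment and 75.0 to 79.8 with NLS-GFP. Of 15 fibrosarcoma markers measured, 13 were above background on every array of the NET39 line and of untreated cells, and 12 on every array of both transient groups. On the first principal component untreated replicate 4 (17.5) lay among the transient arrays (7.94 to 25.3), away from the other 3 untreated arrays (-8.47 to -4.39). The single probe for PLPP7 was above background on 0 of 4 arrays of the NET39 line, 3 of 4 of untreated cells, 0 of 3 with the fragment and 1 of 3 with NLS-GFP. Its position relative to the constructs is not known, so it is no check of the labels.

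Far more genes changed with full-length NET39 than with its fragment. The full-length change called 694 of 18665 genes (3.72%), 225 higher (1.21%) and 469 lower (2.51%) in the NET39 line. The soluble change called 27 (0.145%), 20 higher (0.107%) and 7 lower (0.0375%) with the fragment (4 higher and 4 lower after median scaling). The interaction called 428 (2.29%), 182 with a higher value (0.975%) and 246 with a lower one (1.32%) under full-length NET39 than under the fragment. Of the 694 genes, 297 (42.8%) also passed in the interaction. In these 694, chosen for their full-length change, the median size of the full-length change was 0.71 and that of the soluble change 0.19. In the 27 soluble genes, chosen the other way, the sizes were 0.34 and 0.80, and over all genes 0.078 and 0.084, with the soluble change the larger one in 50.7%. Both changes had the same sign in 61.1% of the 694, against 50.6% of all genes. The share was 83.9% in the 397 that passed for full-length NET39 and not in the interaction. That choice itself favours changes of the same sign, so the 83.9% is no evidence of a shared response. Across genes, which are not independent replicates, Pearson's correlation of both changes was 0.236 over the 694 and 0.0859 over all genes.

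Small changes with the fragment were beyond the reach of these arrays. The median half-width of the 95% interval over all genes was 0.199 for a soluble change and 0.264 for an interaction. The soluble count was 7, 12 and 9 without NET39 soluble replicates 1, 2 and 3, it was 9 without NLS-GFP replicate 1 and 9 without replicate 2, and it was 289 without NLS-GFP replicate 3. Scaling the arrays by their medians in place of quantiles left 72 interaction genes, 70 of them among the 428.

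**Figure D1:**
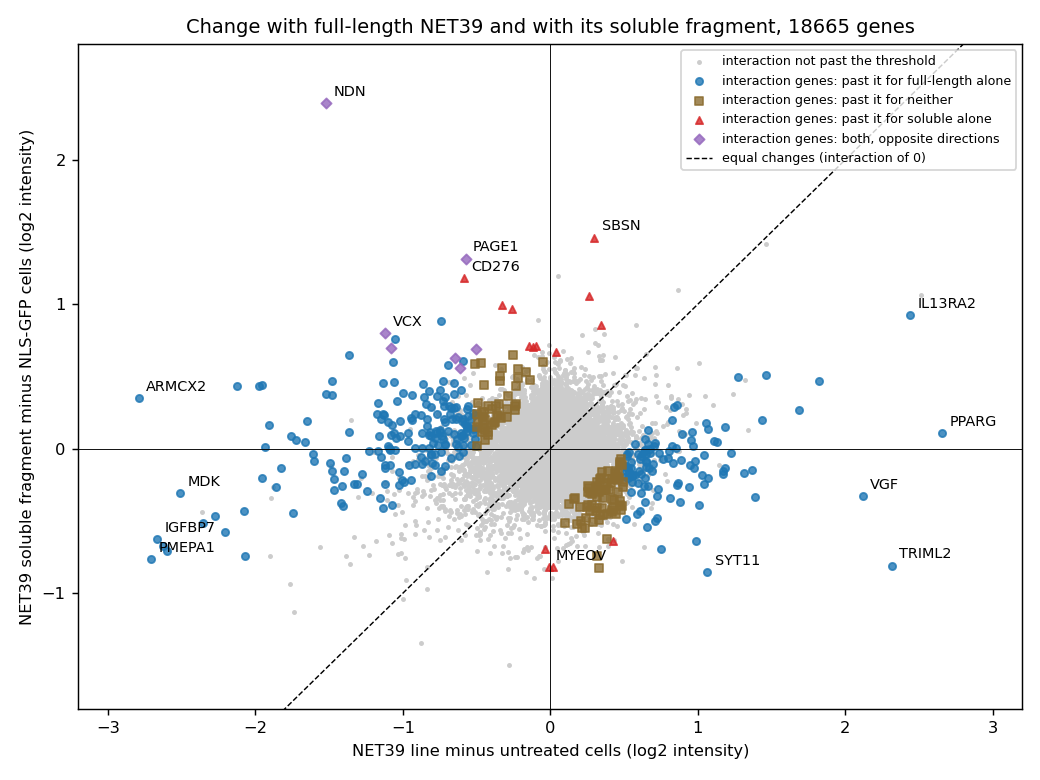
Each point is 1 of 18665 genes, with the change in the NET39 line against untreated cells on the horizontal axis and the change with the soluble fragment against NLS-GFP on the vertical axis, both in log2 intensity. Coloured points are the 428 interaction genes by the change or changes that passed, and NDN lies alone at the upper left (-1.52 and 2.39).

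The interaction genes were of 4 kinds. In 290, 106 higher and 184 lower, the full-length change passed and the soluble one did not. In 14, 4 higher and 10 lower, the soluble change passed and the full-length one did not. In 7, all lower, both passed in opposite directions, and 0 passed in both with the same sign. In the other 117, 72 higher and 45 lower, neither change passed alone, as for MAOA, which degrades monoamines (1.01, made of 0.38 with full-length NET39 and -0.62 with the fragment). A gene that passed for full-length NET39 alone is not shown to lack a soluble response. Arrays of the NET39 line and of untreated cells did not overlap in 362 of the 428 (84.6%, against 9.02% of all genes), and arrays of the fragment and of NLS-GFP did not overlap in 208 (48.6%, against 18.1%). The 428 were chosen on these arrays, so these shares are a description.

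NDN had the largest interaction of all genes, -3.91 ± 0.15 (SE here and below; adjusted p 1.36e-14). It encodes necdin, an imprinted growth suppressor of the MAGE family. Its log2 level was 5.86, 5.80, 5.87 and 5.85 in the NET39 line, not above background on any array, against 7.21, 7.76, 7.11 and 7.37 in untreated cells, at least 2.26-fold lower in the line (adjusted p 1.64e-10). Such a bound sets the mean of the brighter group against the lowest signal told apart from background. With the soluble fragment it was 8.92, 8.76 and 8.79, against 6.39, 6.38 and 6.53 with NLS-GFP. Neither pair of groups overlapped, and the fragment arrays were the highest of the 4 groups. The soluble rise of 2.39 ± 0.11 was the largest soluble change of all genes. NLS-GFP also differed from untreated cells, by -0.93 ± 0.10.

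ARMCX2, an X-linked armadillo repeat gene, followed with -3.14 ± 0.15 (adjusted p 8.71e-13). It was 7.11, 7.21, 6.99 and 7.29 in the NET39 line, against 10.15, 9.81, 9.92 and 9.87 in untreated cells, and 10.65, 10.61 and 10.60 with the fragment, against 10.11, 10.36 and 10.34 with NLS-GFP. The line was low on all 4 arrays, while the fragment lay above NLS-GFP on all 3 by an amount that did not pass (0.35 ± 0.11, adjusted p 0.264). MDK, the growth factor midkine, stayed at background on all 4 arrays of the line (6.09, 6.18, 5.95 and 6.0), against 8.39, 9.05, 8.53 and 8.29 in untreated cells, at least 5.19-fold lower (adjusted p 1.12e-12). It was 8.90, 8.55 and 8.62 with the fragment, against 9.05, 9.17 and 8.77 with NLS-GFP, groups that overlapped, and its interaction was -2.20 ± 0.18. The other 5 probes for MDK were not above background, and averaging all its probes left -0.44.

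Further large negative interactions belonged to genes of several kinds. SLC43A3, a nucleobase transporter, had an interaction of -2.56 ± 0.20, and GSTT1, a glutathione transferase, -2.39 ± 0.20. GSTT1 stayed at background in the NET39 line and was at least 2.86-fold lower there than in untreated cells. ASB9, a substrate adaptor of ubiquitin ligases, had -2.41 ± 0.29 and was at least 3.39-fold lower. CDCP1, a membrane protein of cell adhesion, had -2.01 ± 0.27, made of -1.37 in the line and 0.65 with the fragment, of which the soluble part did not pass (adjusted p 0.264). The adhesion receptor ADGRG1 had -1.95 ± 0.18, LYPD1 -1.94 ± 0.16 and HCLS1, an actin regulator best known from blood cells, -1.89 ± 0.16. The soluble change of LYPD1 was 0.01, with a 95% interval from -0.24 to 0.26.

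TRIML2, of the tripartite motif family, had the largest positive interaction, 3.12 ± 0.30 (adjusted p 3.84e-07). It was 10.58, 10.49, 10.60 and 10.88 in the NET39 line, against 8.34, 7.90, 7.77 and 9.31 in untreated cells, and 7.97, 7.90 and 7.85 with the fragment, against 8.68, 8.74 and 8.73 with NLS-GFP. Every array of the line lay above every untreated array and every fragment array below every NLS-GFP array, although the soluble change (-0.81 ± 0.22) did not pass (adjusted p 0.185). PPARG encodes the nuclear receptor that governs fat cell formation. It was 8.99, 9.20, 8.95 and 8.72 in the line, against 6.07, 6.42, 6.22 and 6.54 in untreated cells, and 6.08, 6.03 and 6.23 with the fragment, against 6.03, 5.88 and 6.10 with NLS-GFP, not above background on any array of either transient group. The line stood apart from all other arrays, with an interaction of 2.55 ± 0.15 (adjusted p 1.38e-10), and PPARG was at least 6.57-fold higher in the line than with the fragment. Of 3 further probes for PPARG 1 was above background and 1 passed in the same direction.

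VGF, a precursor of secreted neuropeptides, was 11.14, 10.67, 10.61 and 11.07 in the NET39 line, against 9.12, 9.58, 8.92 and 7.41 in untreated cells, and 8.36, 8.31 and 8.23 with the fragment, against 8.31, 8.67 and 8.91 with NLS-GFP. Untreated replicate 4 was the lowest of its group, the line lay above all untreated arrays, and the interaction was 2.45 ± 0.42 (adjusted p 0.0015). SYT11, a synaptotagmin of vesicle traffic, had 1.92 ± 0.24, made of 1.06 in the line and -0.85 with the fragment (adjusted p 0.0614). DUSP5, a nuclear phosphatase that switches off ERK kinases, had 1.73 ± 0.26, of which 0.71 was the difference between NLS-GFP and untreated cells. IL13RA2, a decoy receptor for interleukin 13, was 2.44 ± 0.20 higher in the line and 0.92 ± 0.24 higher with the fragment, where it did not pass (adjusted p 0.144), and its interaction was 1.52 ± 0.31. BCL11A, a zinc finger repressor, had 1.48 ± 0.22, and RRAGD, a GTPase that relays amino acid supply to mTOR complex signalling, 1.45 ± 0.25. HSPB1, a small heat shock protein, was 7.79, 7.83, 7.70 and 7.84 in the line, against 6.36, 6.55, 6.33 and 7.25 in untreated cells, with an interaction of 1.33 ± 0.20.

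**Figure D2:**
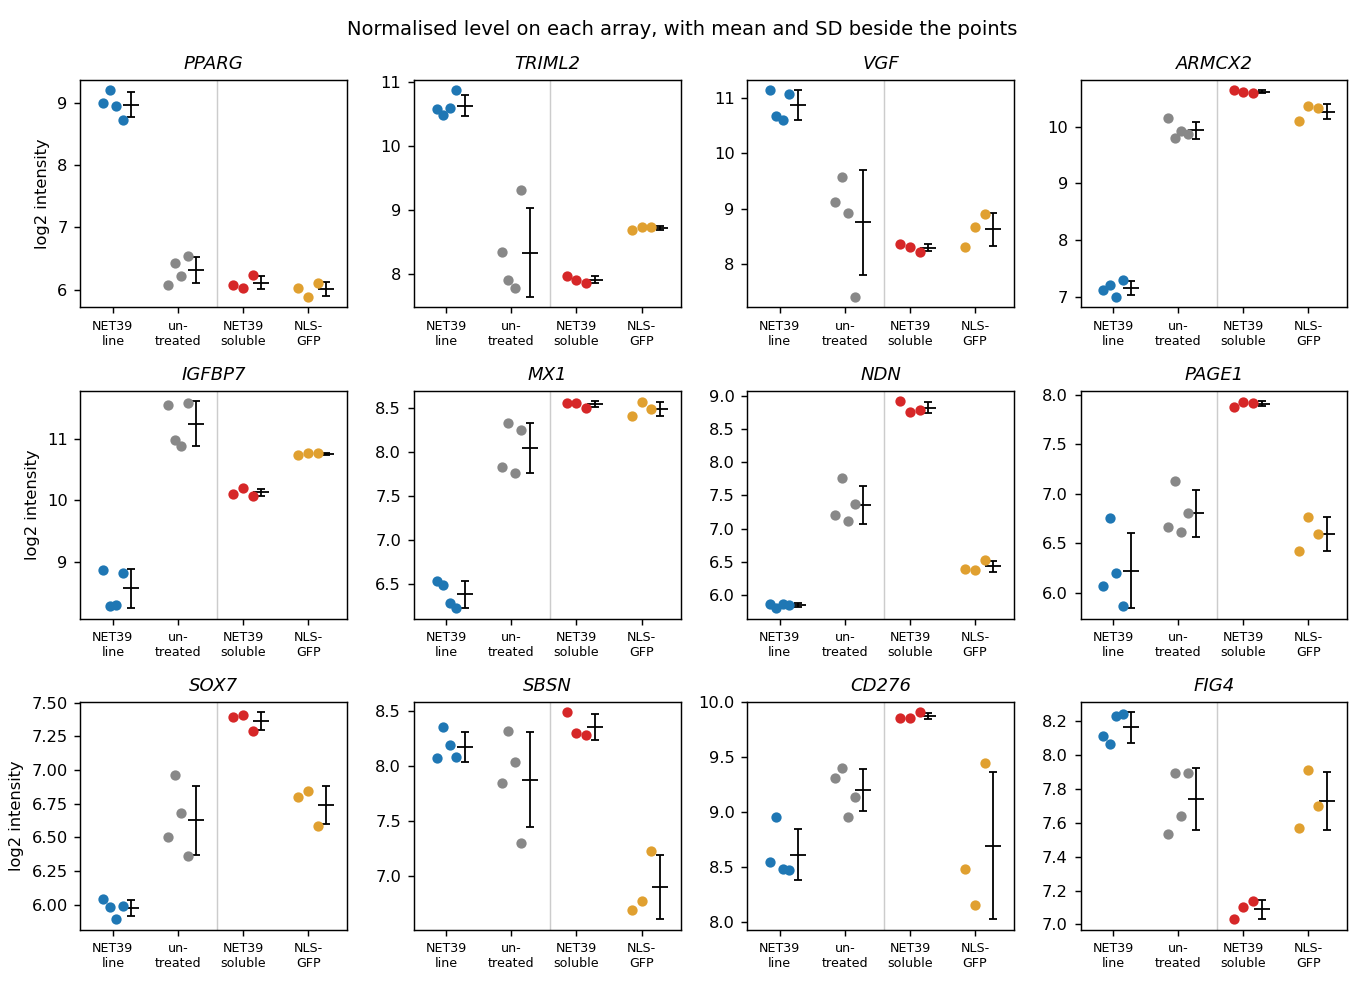
Each point is 1 array and each panel 1 gene, with the log2 intensity on the vertical axis, the mean and SD beside the points, and the NET39 line, untreated cells, the NET39 soluble fragment and NLS-GFP from left to right. NDN is lowest in the line and highest with the fragment, PPARG is high in the line alone, and SBSN is lowest with NLS-GFP.

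The promoters of 5 genes are shown because the genes lie at the ends of the interaction or, for SERPINH1, the collagen chaperone, because only its soluble change passed. Each sequence is the 250 bases before a transcription start in RefSeq (GRCh38.p14), written 5′ to 3′ on the strand of the gene, with motif matches in capitals. PPARG has 6 annotated starts, of which the second is shown, and SERPINH1 has 2, of which the first is shown. Every window shown holds a match, so they do not stand for promoters at large. TRIML2, with the largest positive interaction, is not shown, and its 2 windows held no match. Of the other PPARG starts, 1, 4 and 5 held no match, 3 the same TATA match and 6 a CCAAT box. The other SERPINH1 start held a CCAAT box and no heat shock element.
VGF, chr7:101165570-101165819, minus strand: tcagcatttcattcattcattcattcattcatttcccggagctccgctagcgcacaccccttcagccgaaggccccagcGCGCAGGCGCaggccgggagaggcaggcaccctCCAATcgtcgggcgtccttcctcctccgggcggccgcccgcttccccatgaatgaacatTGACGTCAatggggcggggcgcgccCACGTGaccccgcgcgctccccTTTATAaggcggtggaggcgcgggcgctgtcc
PPARG, chr3:12288810-12289059, plus strand: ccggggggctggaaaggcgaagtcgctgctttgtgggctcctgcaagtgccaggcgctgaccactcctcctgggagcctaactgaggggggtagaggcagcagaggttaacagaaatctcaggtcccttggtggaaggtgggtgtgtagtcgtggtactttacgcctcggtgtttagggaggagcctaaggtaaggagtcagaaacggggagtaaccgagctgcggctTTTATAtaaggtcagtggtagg
NDN, chr15:23687306-23687555, minus strand: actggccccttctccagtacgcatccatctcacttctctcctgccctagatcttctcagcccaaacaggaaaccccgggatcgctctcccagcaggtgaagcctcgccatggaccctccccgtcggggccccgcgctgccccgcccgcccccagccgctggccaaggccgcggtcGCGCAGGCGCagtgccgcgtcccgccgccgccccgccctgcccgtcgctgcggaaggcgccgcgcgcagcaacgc
ARMCX2, chrX:101659851-101660100, minus strand: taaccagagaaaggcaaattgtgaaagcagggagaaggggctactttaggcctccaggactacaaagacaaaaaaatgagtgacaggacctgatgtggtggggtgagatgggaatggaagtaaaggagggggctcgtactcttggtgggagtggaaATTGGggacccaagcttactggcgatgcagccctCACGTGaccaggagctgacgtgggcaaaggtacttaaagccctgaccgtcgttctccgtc
SERPINH1, chr11:75562003-75562252, plus strand: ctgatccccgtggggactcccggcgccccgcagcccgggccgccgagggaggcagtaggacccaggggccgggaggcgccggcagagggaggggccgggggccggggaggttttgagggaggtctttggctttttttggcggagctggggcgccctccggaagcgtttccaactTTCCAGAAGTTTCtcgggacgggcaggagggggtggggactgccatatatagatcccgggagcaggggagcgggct

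The VGF window holds a cyclic AMP response element (TGACGTCA) 79 bases before the start, an E-box (CACGTG) at 54 and a TATA match (TATAAA, here on the opposite strand) at 32. It also holds a CCAAT box at 138 and an NRF1 element at 171. The PPARG window holds a TATA match on the opposite strand at 22, the NDN window an NRF1 element at 75, the ARMCX2 window an E-box at 60 and a CCAAT box at 94, and the SERPINH1 window a heat shock element at 76. Of the genes tested 14783 had a window, among them 331 of the 428 interaction genes, and 9 motifs were searched on both strands. The TATA match was present in 15.6% of the 141 higher and 7.89% of the 190 lower interaction genes with a window, against 11.8% of all genes. An AP-1 site (TGANTCA) was present in 7.8% of the higher and 12.1% of the lower ones, against 7.35% of all, and the E-box in 12.8% and 7.89%, against 9.61%. The CCAAT box was present in 39.7% and 39.5%, against 40.6%, the cyclic AMP element in 3.55% and 2.63%, against 2.86%, and the NRF1 element in 9.22% and 10.0%, against 8.81%. The interferon-stimulated element was present in 5.67% and 2.11%, against 3.52%. The heat shock and SMAD elements (the SMAD element being GTCTAGAC) were each present in 1 lower and 0 higher genes. That was 0.526% of the lower genes for each, against 0.534% and 0.189% of all genes. The lower gene with the heat shock element was SERPINH1. These shares were not tested, and a match describes letters in a window, not a site that is bound.

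The 7 genes that moved in opposite directions were NDN, VCX, PAGE1, VCX3A, SOX7, ALDH2 and LAMB3. PAGE1, an X-linked cancer-testis gene, was 6.07, 6.76, 6.20 and 5.87 in the NET39 line, against 6.66, 7.13, 6.61 and 6.81 in untreated cells, and 7.88, 7.93 and 7.92 with the fragment, against 6.42, 6.77 and 6.59 with NLS-GFP. NET39 line replicate 2 overlapped untreated cells, and the fragment lay above all other arrays, with a soluble rise of 1.32 ± 0.16 (adjusted p 0.000165) and an interaction of -1.89 ± 0.21. SOX7, a transcription factor of vessel development, stayed at background on all 4 arrays of the line (6.04, 5.98, 5.89 and 5.99), against 6.50, 6.96, 6.68 and 6.36 in untreated cells, at least 1.35-fold lower. It was 7.39, 7.41 and 7.29 with the fragment, against 6.80, 6.84 and 6.58 with NLS-GFP, higher on every fragment array, and its interaction was -1.27 ± 0.15. VCX (-1.92 ± 0.21) and VCX3A (-1.78 ± 0.17) are near-identical X-linked germ cell genes whose probes may not tell them apart. ALDH2, the mitochondrial aldehyde dehydrogenase, had -1.19 ± 0.18, and LAMB3, a laminin chain of epithelial basement membranes, -1.18 ± 0.15.

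In 14 genes only the soluble change passed. SBSN, a secreted protein of skin, was 8.07, 8.36, 8.19 and 8.08 in the NET39 line, against 7.85, 8.32, 8.04 and 7.30 in untreated cells, and 8.49, 8.30 and 8.28 with the fragment, against 6.69, 6.77 and 7.23 with NLS-GFP. The NLS-GFP arrays were the lowest of the 4 groups, and the interaction of -1.16 ± 0.23 was made of -0.18 between line and fragment and -0.98 between NLS-GFP and untreated cells. CD276, an immune checkpoint ligand, was 8.55, 8.96, 8.48 and 8.47 in the line, against 9.31, 9.40, 8.96 and 9.14 in untreated cells, and 9.86, 9.86 and 9.91 with the fragment, against 8.48, 8.16 and 9.45 with NLS-GFP. The fragment arrays were the highest, NLS-GFP replicate 3 lay well above the other NLS-GFP arrays, and the interaction was -1.77 ± 0.29. SERPINH1 had a soluble rise of 0.99 ± 0.19 and an interaction of -1.32 ± 0.26, ECSCR, a protein of endothelial cell surfaces, 0.97 ± 0.17 and -1.23 ± 0.23, and MTA2, a subunit of the NuRD deacetylase complex, 0.71 ± 0.13 and -0.86 ± 0.17. Of the SERPINH1 interaction -0.51 lay between line and fragment (adjusted p 0.0858) and -0.81 between NLS-GFP and untreated cells (adjusted p 0.0237). Its fragment arrays (10.45, 10.22 and 10.07) overlapped untreated cells. NLS-GFP replicates 1 and 2 (9.07 and 8.78) were the lowest SERPINH1 arrays of the 4 groups. The other lower genes among the 14 were FBXO22, TMEM216, C1orf94, MTHFS and SNCB.

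The 4 higher ones were FIG4, TENT5A, MYEOV and BGN. FIG4, a phosphoinositide phosphatase, was 8.11, 8.06, 8.23 and 8.24 in the NET39 line, against 7.53, 7.89, 7.64 and 7.89 in untreated cells, and 7.03, 7.10 and 7.14 with the fragment, against 7.57, 7.91 and 7.70 with NLS-GFP. The line lay above its control and the fragment below its own on every array, but the change in the line (0.42 ± 0.10) was under the fold limit, and the interaction was 1.06 ± 0.15 (adjusted p 0.000189). MYEOV was 6.02, 6.09 and 6.03 with the fragment, not above background on any array, against 6.78, 6.82 and 7.0 with NLS-GFP, at least 1.53-fold lower. Its NET39 line (6.25, 6.22, 6.06 and 6.18) and untreated arrays (6.03, 6.06, 6.20 and 6.47) overlapped, and NLS-GFP was the group apart. TENT5A lost its interaction call without NLS-GFP replicate 1 or 2, and BGN without untreated replicate 3, NLS-GFP replicate 1 or 2 or NET39 soluble replicate 1.

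Because the interaction has 2 controls, it equals the direct difference between the NET39 line and the fragment plus the difference between NLS-GFP and untreated cells. The direct difference called 1289 genes (6.91%), 552 higher (2.96%) and 737 lower (3.95%) in the line. That split depended on scaling, with 314 higher and 149 lower after median scaling and 409 higher and 860 lower after cyclic loess. NLS-GFP against untreated cells called 208 (1.11%), 78 higher (0.418%) and 130 lower (0.696%). Of the 428 interaction genes, 322 passed in the direct difference with the same sign, 106 did not pass in it, and 21 passed in NLS-GFP against untreated cells. The difference between the controls was larger than the direct difference in 37. PMEPA1, an inhibitor of TGF-beta signalling, was 6.48, 6.42, 6.28 and 6.40 in the line, against 9.64, 9.77, 8.95 and 8.07 in untreated cells, and 6.87, 6.90 and 6.87 with the fragment, against 7.43, 7.80 and 7.69 with NLS-GFP. Untreated cells were highest, and the interaction of -1.95 ± 0.34 was made of -0.48 between line and fragment (adjusted p 0.243) and -1.47 between the controls. ADAM19, a membrane protease, had -0.85 ± 0.17, of which -0.89 was the difference between the controls.

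**Figure D3:**
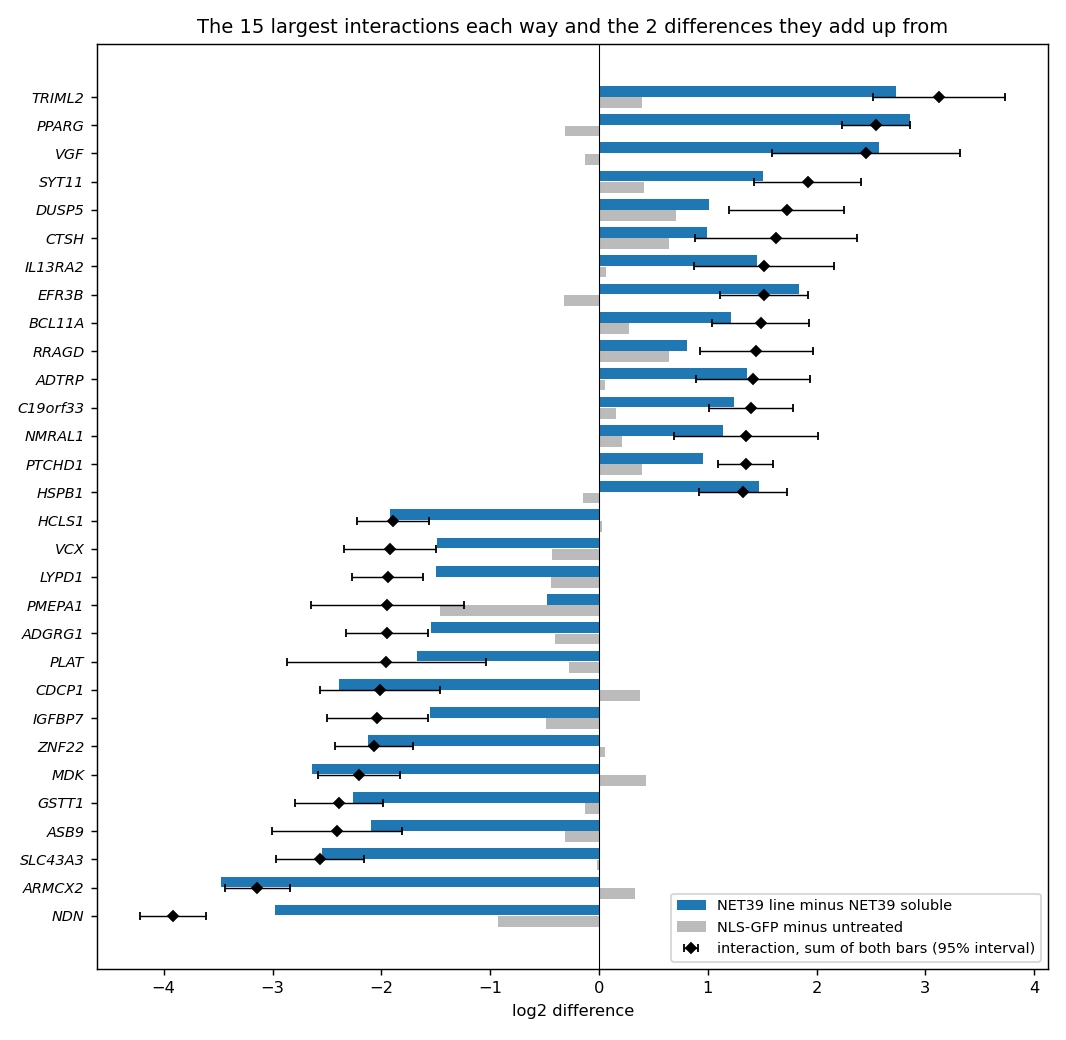
For the 15 largest interactions each way, from the most positive at the top to the most negative at the bottom, blue bars give the log2 difference between the NET39 line and the NET39 soluble fragment, grey bars that between NLS-GFP and untreated cells, and diamonds their sum with its 95% interval. The grey bar is short for PPARG (-0.31) and ARMCX2 (0.33) and makes up most of PMEPA1 (-1.47).

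The genes were then grouped by 30 pathway lists. The extracellular matrix held the most interaction genes, 7 lower and 2 higher of 32 measured (28.1%, against 2.29% of all genes and 3.59% of those above background), with a median interaction of -0.17, against 0.00 over all genes. The lower ones were the thrombospondins THBS1 and THBS2 and the collagens COL1A2, COL4A2, COL5A1, COL6A1 and COL6A3, and the higher ones tenascin (TNC) and biglycan (BGN). THBS2, which restrains vessel growth, was 6.96, 7.22, 6.78 and 6.92 in the NET39 line, against 9.16, 9.93, 9.52 and 8.70 in untreated cells, and 9.18, 9.27 and 9.39 with the fragment, against 10.07, 10.01 and 9.32 with NLS-GFP. The line was the lowest group on every array, and the interaction was -1.84 ± 0.26 (adjusted p 0.000188). COL6A1 was 7.43, 7.26, 7.25 and 7.19 in the line, against 8.40, 8.45, 8.13 and 8.54 in untreated cells, with a soluble change of 0.02 ± 0.09 and an interaction of -1.12 ± 0.13. COL5A1 had -1.15 ± 0.21, of which -0.87 was the difference between the controls, and TNC had 0.78 ± 0.16. With single arrays left out the list held 4 to 7 lower genes, 4 of them without NLS-GFP replicate 2, and 1 to 2 higher ones, and with median scaling 0 of either.

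In the TGF-beta pathway 5 of 20 measured genes were lower (25%, against 1.32% of all genes) and 0 higher, with a median of -0.07. They were the ligand TGFB2, the signal transducer SMAD3, the inhibitors SMAD6 and PMEPA1 and the secreted target TGFBI. TGFB2 was 5.94, 5.79, 5.99 and 5.96 in the NET39 line, not above background on any array, against 7.32, 7.37, 7.45 and 7.15 in untreated cells, at least 2.2-fold lower. It was 6.73, 6.69 and 6.99 with the fragment, against 7.40, 7.58 and 6.62 with NLS-GFP, groups that overlapped, and its interaction was -1.01 ± 0.20 (adjusted p 0.00773). SMAD3 had -1.08 ± 0.21 with a soluble change of -0.01 ± 0.16, and TGFBI -1.65 ± 0.29 with a soluble change of -0.43 ± 0.22. The count stayed at 5 with each single array left out and was 0 with median scaling.

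In the insulin-like growth factor pathway 3 of 17 were lower (17.6%, against 1.32% of all genes): IGFBP7 and IGFBP6, of the binding protein family, and IRS1, the adaptor below the receptors. IGFBP7 was 8.88, 8.29, 8.31 and 8.83 in the NET39 line, against 11.54, 10.98, 10.88 and 11.57 in untreated cells, and 10.11, 10.20 and 10.08 with the fragment, against 10.74, 10.77 and 10.76 with NLS-GFP. Line and fragment were both below their controls on every array, the soluble change (-0.63 ± 0.17) did not pass, and the interaction was -2.04 ± 0.23 (adjusted p 4.83e-06). IGFBP6 had -1.26 ± 0.27 and IRS1 -0.77 ± 0.14. With median scaling 1 of the 3 passed.

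Of 29 interferon-induced genes 2 were lower (6.9%, against 1.32% of all genes), MX1 and OAS2, with a list median of -0.16. OAS2 lost its call with median scaling and without untreated replicate 2, NET39 line replicate 1, 2 or 3, NLS-GFP replicate 2 or 3 or any 1 of the NET39 soluble replicates, and the list held 1 to 2 lower genes with single arrays left out. MX1, an antiviral GTPase, was 6.53, 6.49, 6.28 and 6.22 in the NET39 line, against 7.83, 8.33, 7.76 and 8.25 in untreated cells, and 8.56, 8.56 and 8.50 with the fragment, against 8.41, 8.57 and 8.49 with NLS-GFP. The line was the lowest group, the fragment and NLS-GFP overlapped, and the interaction was -1.71 ± 0.18 (adjusted p 1.54e-06). Of 21 inflammatory genes 2 were lower (9.52%, 1 with median scaling), the chemokine CCL2 (-1.62 ± 0.26) and the cytokine IL1A (-0.87 ± 0.13), both at background on all 4 arrays of the line. CCL2 was 0.88 ± 0.20 higher with the fragment, which did not pass (adjusted p 0.0739).

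Among 24 fatty acid and adipocyte genes PPARG was higher, while FABP5, a fatty acid carrier (-1.20 ± 0.22), and FADS2, a desaturase (-1.11 ± 0.20), were lower and 21 did not pass. The share that passed was 12.5%, against 2.29% of all genes. Of 16 genes of ERK feedback 2 were higher (12.5%, against 0.975% of all genes), DUSP5 and MYC (0.78 ± 0.12). With single arrays left out 2 to 3 of them were higher and 0 to 1 lower, and with median scaling 0 passed. Of 17 heat shock genes HSPB1 was higher and HSPA1A (-1.67 ± 0.34) lower (11.8%, against 2.29% of all genes). The probe for HSPA1A may also read its near copy HSPA1B. Without NLS-GFP replicate 3 the lower ones were 3, and with median scaling 0. The Notch ligand DLL1 (0.89) and the lysophosphatidic acid receptor LPAR3 (1.24) were higher, and the Wnt antagonist SFRP1 (-1.09) was lower. Each was the only gene called in its list, of 14, 22 and 19 measured (7.14%, 4.55% and 5.26%, against 2.29% of all genes). DLL1 and SFRP1 did not pass with median scaling. Of genes tied to muscle, where NET39 is made, 0 of 14 regulators passed and 1 of 26 contractile genes, MYOM2 (-1.10), was lower. The nuclear lamina list had 0 of 19 and the heterochromatin list 0 of 24, and the unfolded protein, p53, mitosis, histone and ribosome lists also had 0. In lists this short a count of 0 or 1 is near the share of all genes, 2.29%. These counts, and those of the muscle lists, are therefore no result about their genes. Without untreated replicate 1 the lamina list had 1 higher gene and the p53 list 1 lower. Of 20 genes of hypoxia and glycolysis 0 passed in the interaction and 8 were lower in the full-length change, where 2.51% of all genes were. The list median was -0.32 in that change and -0.18 in the soluble one, and 3 interaction genes were lower without untreated replicate 1 and 1 with cyclic loess.

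**Figure D4:**
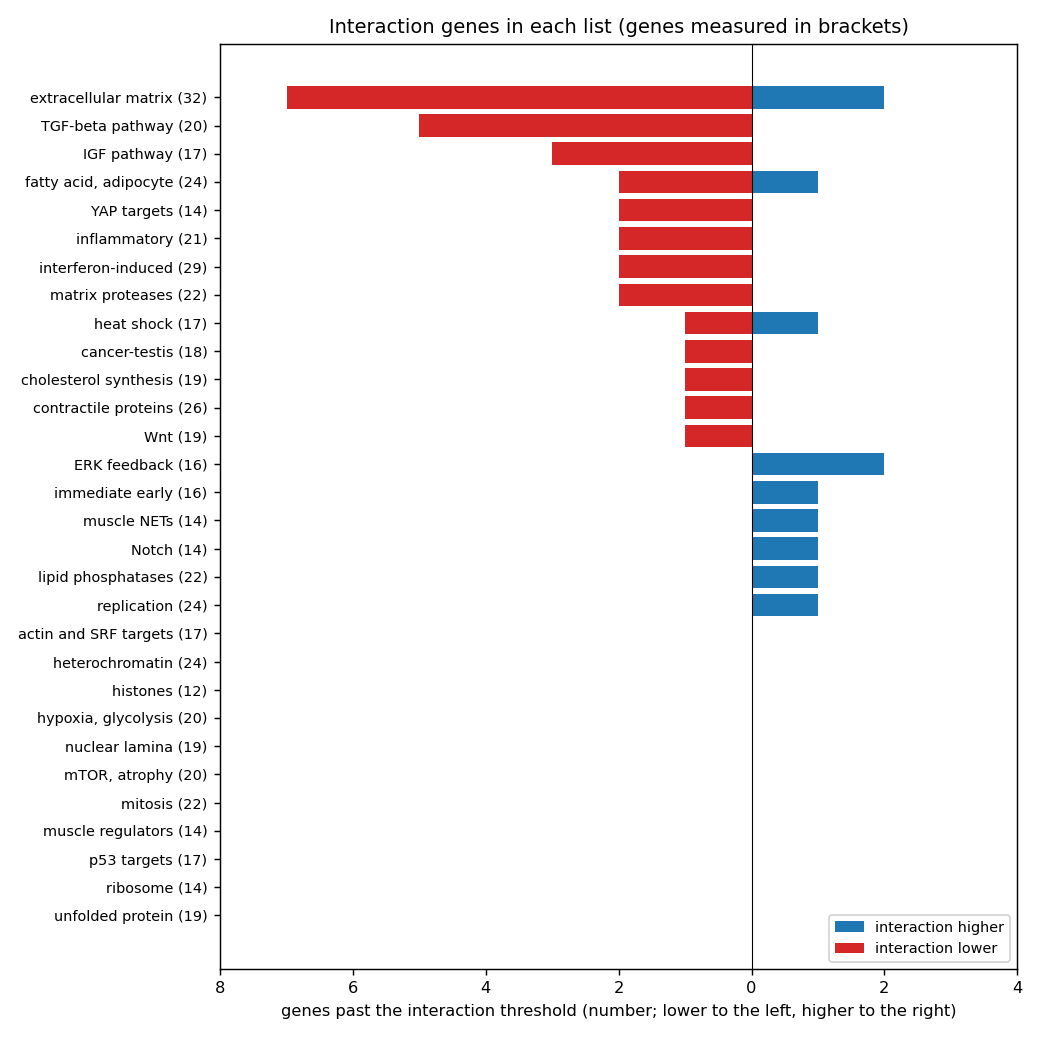
For each of 30 pathway lists, with the number of genes measured in brackets, bars give the number of genes past the interaction threshold, higher to the right in blue and lower to the left in red. The extracellular matrix (7 lower and 2 higher of 32) and the TGF-beta pathway (5 lower of 20) have the most.

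The study listed genes that moved toward or away from the lamina both in the NET39 line and in differentiating mouse myoblasts. These lists were chosen on the NET39 line, so their direction is not independent evidence. Of 39 symbols listed as moving to the periphery 36 were measured, and of 32 that could be used from the inward list 29. In the interaction 9 were higher and 6 lower in the first list (41.7%) and 2 higher and 8 lower in the second (34.5%), against 2.29% of all genes. In the full-length change 15 were higher and 10 lower in the first list, and 6 higher and 18 lower in the second, where 3.72% of all genes passed. Most genes of both lists thus changed in expression in the line, and the sources do not say whether expression entered the choice. With median scaling 1 was higher and 2 lower in the first list and 0 higher and 1 lower in the second. With single arrays left out 7 to 13 were higher and 6 to 7 lower in the first, and 1 to 2 higher and 5 to 10 lower in the second, with 5 lower without NET39 line replicate 3 or 4, NLS-GFP replicate 1 or 2 or NET39 soluble replicate 3. In the first NAP1L5, an imprinted gene, had -1.69 ± 0.16 and CA2, a carbonic anhydrase, 1.24 ± 0.16. In the second CALB2, calretinin, had -1.63 ± 0.25 and MGMT, a DNA repair enzyme, -1.59 ± 0.15. Of 8 genes that the study discussed by name, PPARG was higher and F8A1 (-1.85 ± 0.18), RAB4A (-1.07 ± 0.15), TGFB2 and TBX3 (-0.56 ± 0.11) were lower. TBX3 did not pass without NLS-GFP replicate 2. CYBRD1 (-0.61 ± 0.19, adjusted p 0.136), PPIC (-0.46 ± 0.13, adjusted p 0.105) and TDO2 (-0.41 ± 0.20, adjusted p 0.504) did not pass. In the full-length change 1 of the 8 was higher and 6 were lower, where 3.72% of all genes passed. In the interaction 62.5% of the 8 passed, against 2.29% of all genes. With median scaling 1 of the 8 was higher and 1 lower in the interaction. The study named the 8 for their change in its lines and not for an interaction, so these counts are not independent evidence.

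Many of the lower interaction genes lay on the long arm of chromosome 1. The whole chromosome held 26.8% of the lower and 18.1% of the higher ones, against 9.96% of all genes. When the 11880 genes above background with a known start were put in windows of 10 Mb (GRCh38.p14), 3.59% were interaction genes, and 3 of 227 windows with at least 20 genes had over 20% of their genes called. On chromosome 1, 17 of 69 genes were lower from 160 to 170 Mb, 7 of 26 from 170 to 180 Mb and 12 of 54 from 220 to 230 Mb, and 0 were higher in any of them. The window from 220 to 230 Mb had the lowest median full-length change of the 227, -0.303, with a median soluble change of -0.01. These windows were singled out after their values were seen and get no test.

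From 160 to 180 Mb 24 of 95 genes were lower and 0 higher. They included SDHC of the respiratory chain (-1.31), the sodium pump subunit ATP1B1 (-1.21), the G protein regulator RGS4 (-1.27), UFC1 of a ubiquitin-like pathway (-1.15) and NCSTN of the gamma-secretase complex (-0.76), genes of unlike function. The median of the 24, relative to the mean of untreated cells, was -0.81, -0.56, -0.71 and -0.81 on the arrays of the NET39 line, against -0.01, 0.13, -0.05 and 0.01 in untreated cells. Relative to the mean of NLS-GFP it was 0.20, 0.11 and 0.18 with the fragment, against -0.03, -0.01 and 0.06 with NLS-GFP. The line was low on every array and the fragment on none. The 24 were chosen for a lower interaction, so this is a description and not a trait of the stretch. The 18 lower interaction genes from 0 to 160 Mb were at -0.78, -0.54, -0.78 and -0.83 in the line. With the fragment those 18 were at 0.31, 0.22 and 0.16. From 200 to 230 Mb 24 of 151 genes were lower and 5 higher, with TGFB2, LAMB3, RAB4A, GUK1 (-1.26) and CNIH4 (-1.31) among the lower ones. Of the 38 genes between these stretches 4 were higher and 0 lower.

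The same stretches were low in another line. The median full-length change from 160 to 180 Mb was -0.12 in the NET39 line, -0.15 in the NET29 line and -0.04 in the NET47 line, and from 200 to 230 Mb it was -0.15, -0.16 and -0.03 in the same order, values that share the untreated arrays. From 0 to 160 Mb it was 0.04, 0.04 and 0.02. For the 24 lower genes from 160 to 180 Mb the arrays of the NET29 line were at -0.80, -0.63, -0.68 and -0.74 and those of the NET47 line at -0.11, -0.20 and -0.03. The 18 lower genes from 0 to 160 Mb were alike, at -0.815, -0.499, -0.757 and -0.867 in the NET29 line. In the NET47 line those 18 were at -0.129, -0.148 and 0.0762. For genes chosen in this way the pattern was not particular to the stretches. Outside both stretches there were 375 interaction genes, 177 higher and 198 lower. DNA copies were not measured on these arrays.

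The NET39 interaction was last set against that of NET29 and NET47, envelope proteins made preferentially in fat and in liver, whose lines and fragments were made in the same way. These differences share the NET39 arrays, and the controls cancel in them. Against NET29, 97 genes differed (0.52%), 37 higher (0.198%) and 60 lower (0.321%) in NET39. Against NET47, 561 differed (3.01%), 205 higher (1.1%) and 356 lower (1.91%). After median scaling 11 were higher and 34 lower against NET29, and 128 higher and 75 lower against NET47. Of the 428 NET39 interaction genes, 25 differed from NET29 with the sign of the NET39 interaction and 8 with the opposite sign. From NET47, 239 differed with its sign and 4 with the opposite one. A gene that did not pass here is not shown to respond alike.

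Both differences passed with the sign of the NET39 interaction in 17 genes, 4 higher and 13 lower. The higher ones were PPARG, HSPB1, CPVL and APLP2. PPARG differed by 2.81 ± 0.15 from NET29, whose own interaction was -0.26, and by 1.91 ± 0.16 from NET47, at 0.63. It was also above untreated cells (6.07, 6.42, 6.22 and 6.54) in the NET29 line (7.13, 7.47, 7.04 and 7.12). The NET47 line was above them too (7.23, 7.24 and 7.28). With the NET29 fragment PPARG was 7.10, 7.21 and 7.10, against 6.03, 5.88 and 6.10 with NLS-GFP. An interaction near 0 for NET29 is therefore not a lack of change. CPVL, a carboxypeptidase, differed by 1.43 ± 0.13 from NET29 and 1.17 ± 0.13 from NET47, and APLP2, of the amyloid precursor family, by 0.85 ± 0.15 and 0.72 ± 0.16. The NET39 interaction of APLP2 did not pass with median scaling or with its probes averaged. CPVL was likewise above its controls in the NET29 line (7.16, 7.22, 7.24 and 7.19) and with the NET29 fragment (7.65, 7.59 and 7.44).

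The lower ones were NDN, MDK, ADGRG1, HCLS1, PAGE1, SERPINB1, TEAD2, SEMA3F, SOX7, TMSB15B, ARPIN, TRNP1 and B4GALNT4. NDN differed by -2.85 ± 0.15 from NET29 and -3.05 ± 0.15 from NET47. Its full-length change was -1.47 in the NET29 line and -0.94 in the NET47 line, and its soluble change -0.41 and -0.08. MDK differed by -1.68 ± 0.18 from NET29 and -4.86 ± 0.19 from NET47, whose own interaction was 2.66. It was as low in the NET29 line (6.11, 6.15, 6.02 and 6.09) as in the NET39 line. The NET47 line was at 8.34, 8.39 and 8.64, near untreated cells. MDK was 7.06, 7.02 and 7.07 with the NET29 fragment and 6.19, 6.40 and 6.12 with the NET47 fragment. With NLS-GFP it was 9.05, 9.17 and 8.77. The difference from NET29 thus lay largely in the fragments, and that from NET47 in both the lines and the fragments. SERPINB1, an inhibitor of neutrophil proteases, differed by -1.57 ± 0.21 and -3.97 ± 0.22, and TEAD2, a DNA-binding partner of YAP, by -1.25 ± 0.19 and -1.91 ± 0.19. SERPINB1, HCLS1 and SOX7 were also about as low in the NET29 line as in the NET39 line. All of them were lower with the NET29 fragment than with the NET39 fragment. ARMCX2 and TRIML2 differed from NET47 (-3.35 ± 0.15 and 2.95 ± 0.31) and did not pass against NET29 (-0.26 ± 0.15 and -0.08 ± 0.30). VGF passed against neither (0.57 ± 0.42 from NET29 and -0.37 ± 0.43 from NET47).

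**Figure D5:**
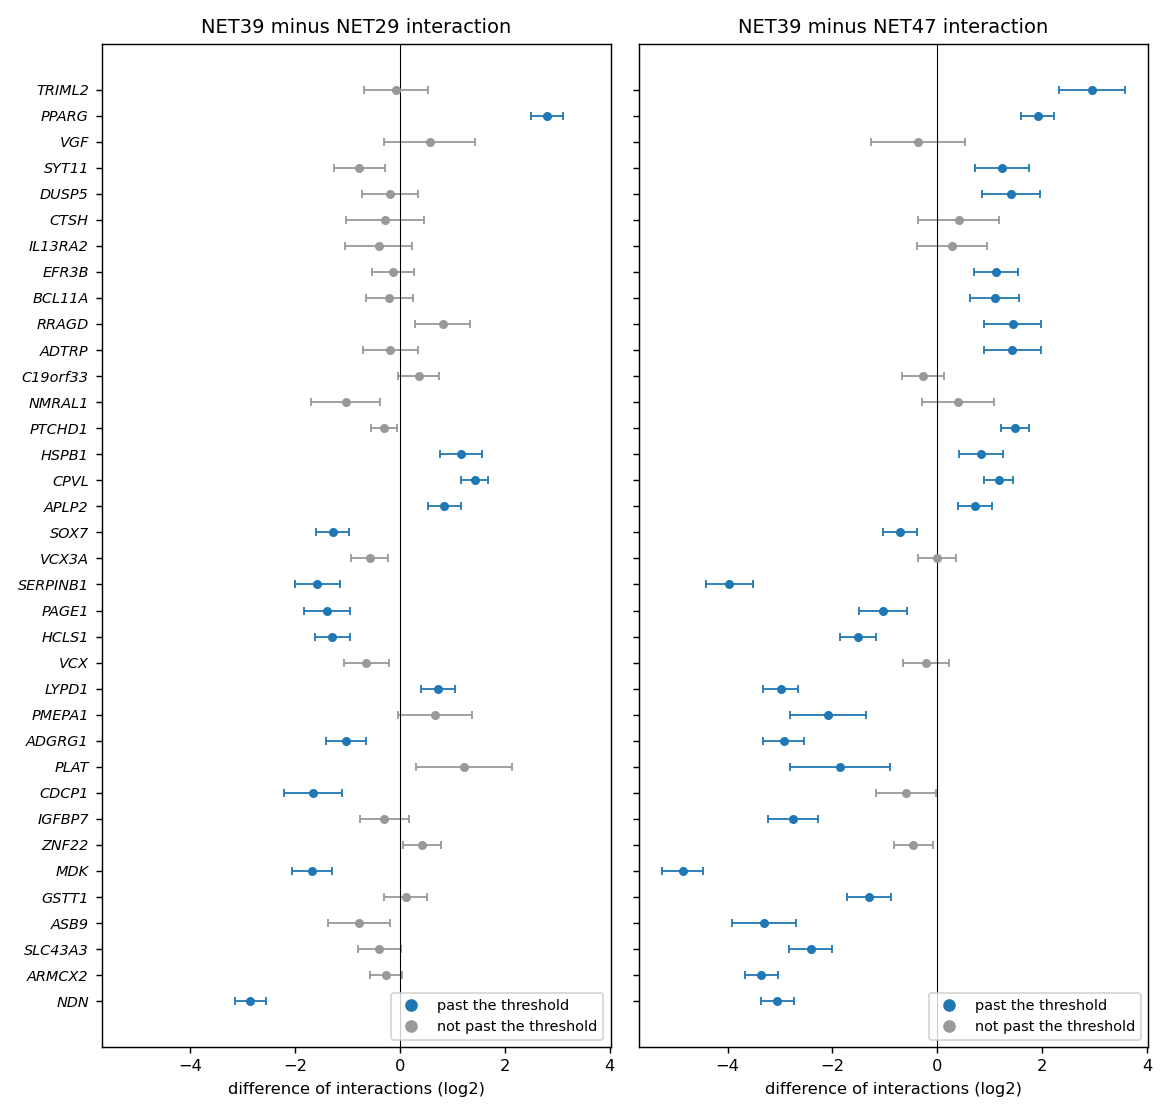
For 36 genes, ordered from the most positive NET39 interaction at the top to the most negative at the bottom, points give the NET39 interaction minus that of NET29 (left) and of NET47 (right) in log2, with 95% intervals, blue where the difference passed. PPARG lies far to the right and NDN far to the left in both panels, while ARMCX2 and TRIML2 lie near 0 against NET29 (-0.26 and -0.08).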

How the data were processed

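RNA from each sample was hybridised to 1 Illumina HT-12 bead array. The deposited intensity table, summarised but not normalised by the authors, gave every main value. The deposited log2 table (48801 probes, median 5.88), quantile normalised by the authors with limma (version not given), served as an alternative. The labels were followed in calling the soluble constructs transient, against a figure legend that calls them stable. The study's methods call the replicates biological, and its text describes separate passages of the lines, fewer than the 4 arrays of the NET39 line. How the other replicates were grown is not given, so p-values measure the spread between these arrays, part of which may be technical.

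Intensities were corrected with normexp (offset 50), quantile normalised and fitted with limma 3.58.1 (R 4.3.3) as 8 group means over all 27 arrays (19 residual degrees of freedom), with Benjamini-Hochberg adjustment over 48803 probes. Of the probes 27577 carried 1 gene symbol, 13 several and 21213 none. Named genes were the 15 largest interactions each way, the largest 5 each way that passed in the soluble change alone, the largest 5 that passed in opposite directions, the largest 6 each way that passed against both other proteins, up to 4 members by p of each list with at least 2 interaction genes, PLPP7 and the genes the study discussed. Others were named after their values were seen. Members, lists and rules were chosen with earlier results of these data known. The fit was tested on simulated data. Alternatives were other scalings, background settings, limits, sample sets, array weights and a replicate block.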

Additional observations from a re-analysis of the deposited data

Results flagged for a closer look

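Among 158 groups of 4 arrays of the named genes, 7 had 1 array far from the other 3, where chance gives about 1 in 20. NET39 line replicate 3 was low for DUSP5 (11.85), SERPINH1 (9.52) and CYBRD1 (7.07). NET39 line replicate 2 was high for CTSH (8.21) and CPVL (7.94). Untreated replicate 4 was high for NMRAL1 (8.7) and FABP5 (9.82), the array that also stood with the transient ones on the first principal component. CTSH and NMRAL1 each lost their interaction call when certain single arrays were left out. The full-length and soluble effects of NET39 differed in 428 genes by the interaction test, and the NET39 interaction differed from that of NET29 in 97 and from that of NET47 in 561.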

How the results depend on the processing

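Of 75 named genes past the interaction threshold, 29 kept their call under each of 29 alternatives and 67 with each single array left out, and 0 changed sign. The counts that moved by over 1.5 times were these, in the order interaction, full-length, soluble, direct, against NET29 and against NET47 unless named. Median scaling gave 72, 291, 8, 463, 45 and 203 genes, and its share of lower genes was 32.2% in the direct difference (57.2% with quantiles), 75.6% against NET29 (61.9%) and 36.9% against NET47 (63.5%). Cyclic loess gave 67.8% lower in the direct difference. A log2 limit of 1 gave 155, 154, 7, 214, 48 and 219. Fitting only the arrays compared gave 262 interaction, 395 full-length and 132 soluble genes, 266 against NET29 and 894 against NET47. The moderated F test over 8 groups gave 1015 interaction and 225 soluble genes, 396 against NET29 and 1088 against NET47. No log2 limit gave 1220 full-length and 2545 direct genes, a normexp offset of 16 gave 2012 direct genes, and array weights gave 78 soluble genes. Without untreated replicates 2 and 4 there were 110 soluble genes and 183 against NET29, and leaving out both untreated replicate 2 and replicate 3 of the NET47 line gave 50 soluble genes. With single arrays left out, interaction genes numbered 296 to 598, full-length genes 613 to 880, soluble genes 7 to 289, direct genes 1071 to 1521, and genes against NET29 and NET47 66 to 84 and 415 to 564. Arrays of the NET39 line and of untreated cells with the same replicate number had correlations of deviations of 0.51, 0.516, 0.255 and -0.182 for replicates 1 to 4, while 1 of the 15 between other groups was over 0.1. Of these, 3 of 4 line arrays and 2 of 4 untreated arrays correlated best with the array of their own number. Not every pair deviated together and the labels tie the numbers to nothing shared, so the arrays were left unpaired, and with replicate as a block there were 46 soluble genes, 468 interaction genes (420 of the 428), 706 full-length, 1392 direct, 100 against NET29 and 573 against NET47. The cause of these moves was not tested.

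Of the soluble-alone genes TENT5A (0.83) and BGN (0.66) lost the call without some single arrays, as did PLAT (-1.95), PTPN14 (-0.81) and OAS2 (-0.82). With the probes of a gene averaged, MDK, ECSCR, APLP2, IRS1, MYC, OAS2 and TBX3 lost their interaction call. The number of arrays limits precision, and genes near background have compressed folds.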
